A study of Homo sapiens with 38 samples.

Results

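The regions described here are places in the genome of Jurkat cells where GATA3 and BHLHE40 binding overlapped and the histone mark H3K27ac was listed. The point of highest GATA3 signal in them lay away from the ends of genes. Members were the GATA3 regions that overlapped a BHLHE40 region and an H3K27ac region by at least 1 bp and whose GATA3 summit, the base of highest signal, was more than 1 kb from both ends of every RefSeq gene record. The rule selected 7075 of 29009 GATA3 regions (24.4%), or 29.9% of the GATA3 regions more than 1 kb from gene ends. Members were chosen by the measured overlap of all 3 lists, so overlap and signal are given as descriptions. Jurkat is an established human T-cell leukaemia line. The series measured protein binding and histone marks with ChIP-seq, in which DNA fixed to a protein is pulled down with an antibody and sequenced. The labels gave 38 samples in 19 groups of 2, comparing base-edited with control-guide cells and BHLHE40 over-expressing cells with cells carrying a control lentivirus. The 3 groups used here (Ctrl_LV GATA3, Ctrl_LV BHLHE40 and Ctrl_LV H3K27ac) all carried the control lentivirus and received the T-cell stimulants PMA (50 ng/ml) and ionomycin (500 ng/ml). The sample labels give 5 hours of stimulation, whereas the treatment protocol gives 2 hours. The remaining 16 groups were not analysed here.

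Enhancers are stretches of DNA away from gene starts that bind transcription factors and raise the activity of genes on the same chromosome. H3K27ac, acetylation of a lysine of histone H3, marks nucleosomes beside active enhancers and promoters. GATA3 is a zinc finger factor needed for T-cell development and part of the TAL1 complex in T-cell leukaemia, and it binds the core letters GATA. BHLHE40 is a basic helix-loop-helix repressor that rises when T cells are activated, takes part in the circadian clock and binds E-boxes, above all CACGTG.

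The 2 samples of a group entered the same list, so no value per sample and no spread between replicates can be given, and the depth is unknown. Intervals below are 95% Wilson intervals for shares, Newcombe intervals for differences of shares and order-statistic intervals for medians. They cover counting only, and regions of 1 list are not independent replicates. The signal value is the authors' own measure of enrichment per region, and it is compared only within a list.

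The sequence under some members could be read because 106 of them had their summit inside a 300-base RefSeq promoter window (GRCh38.p14), around a transcript start that lies inside a longer gene record. The 6 sequences below belong to the members with the highest GATA3 signal among 79 whose summit lay more than 30 bases before such a start (1 chromosome was left out of this choice). They are printed to show what lay under the GATA3 summit: up to 60 bases to each side, 5′ to 3′ on the strand of the named transcript, clipped where the window or the transcript start cut them. Capitals mark GATAA, or TTATC, which is GATAA on the other strand. CACGTG was also searched for and was in none of the 6.
LOC105377205: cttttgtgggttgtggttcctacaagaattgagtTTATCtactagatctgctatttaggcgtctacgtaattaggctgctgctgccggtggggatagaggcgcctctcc
ETFB: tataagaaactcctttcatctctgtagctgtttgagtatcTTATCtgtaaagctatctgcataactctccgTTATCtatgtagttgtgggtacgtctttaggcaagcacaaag
SAMSN1: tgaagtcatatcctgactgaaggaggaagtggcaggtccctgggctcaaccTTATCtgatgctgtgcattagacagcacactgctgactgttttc
LRRFIP2: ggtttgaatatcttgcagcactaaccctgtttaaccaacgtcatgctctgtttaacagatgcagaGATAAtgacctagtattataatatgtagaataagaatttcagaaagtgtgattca
CLCN3: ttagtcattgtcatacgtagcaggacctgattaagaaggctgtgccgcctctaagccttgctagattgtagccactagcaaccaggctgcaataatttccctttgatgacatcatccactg
LOC105375284: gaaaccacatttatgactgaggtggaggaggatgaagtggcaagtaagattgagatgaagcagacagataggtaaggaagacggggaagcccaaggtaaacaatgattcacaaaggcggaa

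In 4 of the 6 sequences the nearest GATAA was centred 7 to 12 bp from the GATA3 summit. The sequence inside LOC105377205, a long noncoding RNA record, is chr22:49839035-49839143 on the minus strand. Its member had a GATA3 signal of 102, rank 234 of the list, with the BHLHE40 summit 6 bp away. The ETFB sequence, chr19:51354980-51355092 on the minus strand, lies in the record of an electron transfer flavoprotein subunit and held 2 matches, the nearer centred 10 bp from the summit. Its GATA3 signal was 98.4 and its H3K27ac signal 5.68. The SAMSN1 sequence, chr21:14546316-14546410 on the minus strand, comes from an adaptor protein gene of lymphocytes, with the summit 35 bases before the start. Its match was centred 7 bp from the summit of a member with a GATA3 signal of 94.5. In LRRFIP2 (chr3:37174891-37175010, minus strand) the match was also 7 bp away, and an E-box of the loose form CANNTG was centred 2.5 bp from the summit. The nearest CANNTG was 36.5 bp from the summit in SAMSN1 and 73.5 bp in CLCN3. The windows of LOC105377205, ETFB and LOC105375284 held none. The CLCN3 sequence, chr4:169660086-169660206 on the plus strand in a chloride transporter gene, held no GATAA, with a GATA3 signal of 49.5. In LOC105375284 (chr7:54996158-54996278, minus strand) the nearest GATAA was 106 bp from the summit, outside the printed bases, and the GATA3 signal was 47.2. Its printed bases do hold the core letters GATA close to the summit, followed by g and so not counted as GATAA. The sequences thus include strong members both with and without GATAA near the summit, and a match is a description, not a measured binding site.

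Over all 106 such members, GATAA on either strand was in 34 windows (32.1%, 24.0% to 41.5%), against 22.8% of all 34943 distinct RefSeq promoter windows and 23.1% (20.9% to 25.5%) of 1262 windows that held a summit of the gene-end class described below. GATAA was centred at most 25 bp from the summit in 15.1% of the members' windows and 8.24% of the gene-end windows. TGANTCA, the letters bound by AP-1 factors such as FOS and JUN, was in 16.0% (10.3% to 24.2%), against 5.86% (4.70% to 7.30%) of the gene-end windows and 7.72% of all windows. CACGTG stood the other way, in 5.66% (2.62% to 11.8%) of the members' windows against 12.0% (10.4% to 14.0%) at gene ends and 7.23% of all windows. The loose E-box CANNTG, which also covers every CACGTG, was in 70.8% of the members' windows, 60.9% of the gene-end windows and 68.7% of all windows. TGTGGT, the letters of RUNX factors, was in 19.8% (13.3% to 28.4%) against 13.3% at gene ends and 13.1% of all windows. AGGAAG, letters found under ETS factors, was in 38.7% of the members' windows, 36.3% at gene ends and 33.7% of all windows. CAGCTG, an E-box of the TAL1 complex, was in 17.0%, 15.0% and 17.9%. The intervals of members and gene-end windows did not overlap for TGANTCA. For CACGTG they overlapped between 10.4% and 11.8%. Both motifs were counted anywhere in a window, not only under the summit. Of the 17 members' windows with TGANTCA, 3 had it centred at most 25 bp from the summit. This was 2.83% of the members' windows, against 1.03% of the gene-end windows. CACGTG was that close in 0.943% and 1.35%. These windows cover 106 members that lie at transcript starts, so they say nothing about the other members, for which no sequence was used here.

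The label of the regions was checked against the gene table and against cell type markers. A member was counted for a gene when its GATA3 summit lay inside the gene record or within 50 kb of it. Of all 20056 protein-coding genes, 31.7% had at least 1 member at this distance. Members lay near 6 of 10 T-cell markers (CD2, CD5, CD6, CD247, LAT and LCK), 0 of 7 B-cell markers, 0 of 6 erythroid markers, 0 of 6 epithelial markers and 2 of 6 myeloid markers. The myeloid genes with a member were SPI1, which encodes the factor PU.1, and CSF1R, a growth factor receptor. The SPI1 member had a GATA3 signal of 14.6. The CSF1R member lay inside the neighbouring gene HMGXB3, 7034 bp from the CSF1R record, with a GATA3 signal of 60.0. The T-cell markers without a member were CD3D, CD3E, CD3G and ZAP70, and CD5 and CD6 share 1 member.

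The word distal holds only for the GATA3 summit and for the ends of gene records. The rest of a member, and the H3K27ac region it overlaps, can reach nearer to a gene end. At ARID5B a member (chr10:61898502-61901590) had its summit 2404 bp outside the record, which starts at 61901699. Its strongest H3K27ac region, with a signal of 5.97, was at 61901165 to 61901598. A transcript start listed in the RefSeq promoter table lay within 1 kb of the summit in 299 members (4.23%, 3.78% to 4.72%) although no gene record ended there. These 299 had other signals than the remaining members. Their median GATA3 signal was 9.08 (8.48 to 9.84) against 17.5 (16.9 to 18.0) for members farther from every listed start, and their median H3K27ac signal was 6.61 (6.06 to 7.07) against 4.11 (4.07 to 4.17). Their median BHLHE40 signal was 13.9 (13.0 to 14.4) against 12.2 (11.9 to 12.4), and their factor summits lay farther apart, 85 bp (62 to 110) against 28 bp (27 to 29). The gene-end regions described below had medians of 9.32 for GATA3 signal and 83 bp for summit distance, inside the intervals of the 299, and a higher median H3K27ac signal, 7.86. The gene table does not separate exons from introns or untranslated regions.

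**Figure D1:**
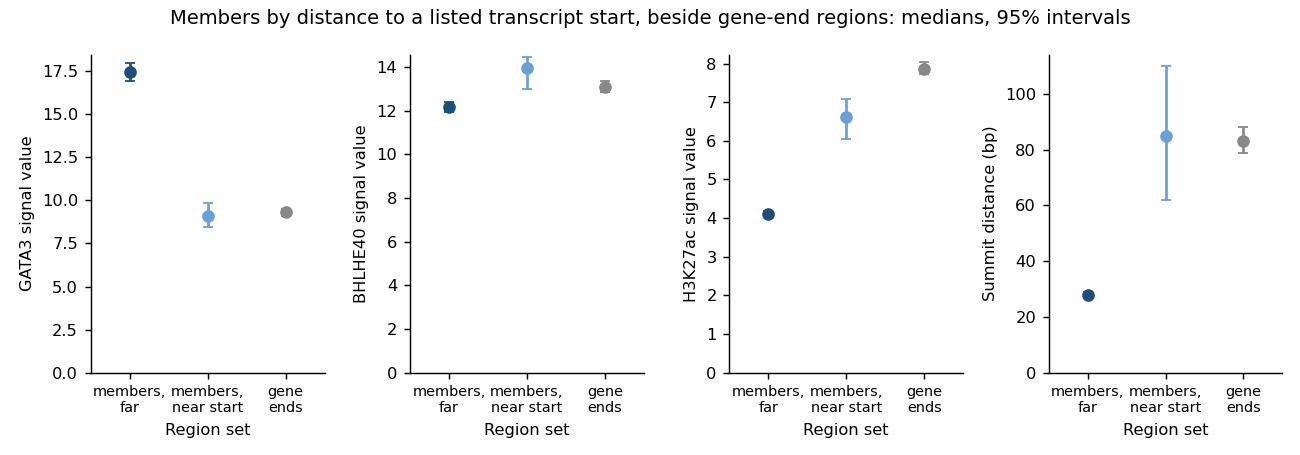
Median GATA3, BHLHE40 and H3K27ac signal values and median summit distance in bp, with 95% order-statistic intervals, for members more than 1 kb from every listed transcript start, for the 299 members within 1 kb of one, and for the 3850 gene-end regions. Members near an internal start lie at 9.08 for GATA3 and 85 bp for summit distance, close to the gene-end values of 9.32 and 83 bp, and far from the 17.5 and 28 bp of the other members.

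Members were among the stronger regions of all 3 lists. The median GATA3 signal was 16.9 (16.3 to 17.5), with quartiles of 9.38 and 34.0 and a range of 1.76 to 269. The median BHLHE40 signal of the overlapped region was 12.2 and the median H3K27ac signal, taken from the strongest overlapped region, was 4.17. By rank, 24.9% of members were in the top 10% of the GATA3 list by signal, 20.7% overlapped the top 10% of the BHLHE40 list and 28.7% the top 10% of the H3K27ac list. Members were 797 bp wide at the median. The score, which in the factor lists reflects how well a region repeated between the samples, was at its maximum of 1000 in both lists for 4956 members (70.0%). In the GATA3 list alone it was 1000 in 82.8% of members and in 82.2% of distal shared regions without H3K27ac. It was 1000 in 65.5% of distal acetylated regions without BHLHE40, 60.5% of shared acetylated regions at gene ends and 53.9% of distal regions with neither. A q-value above 0.05 was listed for 3 members in the GATA3 list, 0 in the BHLHE40 list and 60 in the H3K27ac list. The members rested on 6987 distinct BHLHE40 regions, and 175 members shared theirs with another member.

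The other 3 classes of GATA3 region named here serve for comparison, and the members differ from each by 1 condition of the rule. A further class, distal regions with neither BHLHE40 nor H3K27ac (10785), differs by 2 conditions. Shared acetylated regions at gene ends (3850) were within 1 kb of an end of a gene record. Distal shared regions without H3K27ac numbered 2869, and distal acetylated regions without BHLHE40 numbered 2925. Median GATA3 signal was 9.32 at gene ends, 16.7 in shared regions without H3K27ac and 10.5 in acetylated regions without BHLHE40, beside 16.9 in members. Median H3K27ac signal was highest at gene ends, 7.86, then 4.17 in members and 3.31 in acetylated regions without BHLHE40. H3K27ac regions of members had a median width of 550 bp, between the 929 bp of gene ends and the 286 bp of regions without BHLHE40. Median BHLHE40 signal was 13.1 at gene ends, 12.2 in members and 8.85 in shared regions without H3K27ac. These are values of the lists that chose the classes and carry no test. In the GATA3 list 81.5% of all regions were more than 1 kb from gene ends, 48.7% overlapped BHLHE40 and 49.1% overlapped H3K27ac.

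The threshold of 1 kb cuts through a continuous range. Just inside it, 3 members at 1001 bp, on chromosomes 11, 2 and 7, had GATA3 signals of 29.3, 35.6 and 12.3 and H3K27ac signals of 12.4, 4.58 and 11.7. Just outside, 3 regions at 998 bp, on chromosomes 1, X and 19, had GATA3 signals of 9.38, 11.8 and 28.2 and H3K27ac signals of 6.34, 3.43 and 11.3. Over the 373 members up to 500 bp past the threshold the medians were 13.2 for GATA3 and 4.87 for H3K27ac. Over the 707 shared acetylated regions up to 500 bp short of it they were 11.4 and 6.39.

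The 2 factors had their summits close together in members. The median distance between the GATA3 summit and the nearest overlapped BHLHE40 summit was 29 bp (28 to 30), with quartiles of 12 and 65 bp. The summits were at most 10 bp apart in 21.8% of members, beside 19.5% of all shared GATA3 regions, at most 50 bp apart in 68.4% and over 200 bp apart in 10.4%. At gene ends the median distance was 83 bp (79 to 88), and in distal shared regions without H3K27ac it was 24 bp (23 to 25). The share at most 50 bp apart was 31.3 percentage points higher in members than at gene ends (29.4 to 33.1) and was higher on 21 of 21 chromosomes with at least 50 regions in each class. It was 8.82 points lower than in shared regions without H3K27ac, where it was 77.2%, and lower on 20 of 20 chromosomes. BHLHE40 regions were wider at gene ends, 1230.5 bp at the median against 756 bp in members and 515 bp in shared regions without H3K27ac. Across these classes the median summit distance thus rose with median BHLHE40 width, and the part of width in it was not tested. Within members, Spearman's rho between summit distance and GATA3 region width was 0.103, and no such value was computed for BHLHE40 region width.

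H3K27ac had its summits to the sides of the GATA3 summit in members. In 100-bp steps from the GATA3 summit, members had 20.1 H3K27ac summits per 100 regions at 0 to 100 bp, 26.3 at 100 to 200 bp, 37.6 at 200 to 300 bp and 22.6 at 300 to 400 bp. Regions without BHLHE40 were fullest in the first step, with 31.1 at 0 to 100 bp and 24.4 at 200 to 300 bp. Gene-end regions were also fullest in the first step, with 31.5 and 24.9. GATA3 regions of members were wider than those without BHLHE40, 797 against 582 bp, and the pattern moved with width in both classes. In regions of up to 500 bp, members had 27.7 summits per 100 regions at 0 to 100 bp and 31.2 at 200 to 300 bp, against 37.0 and 23.9 without BHLHE40. Over 500 to 700 bp the values were 22.7 and 36.2 for members against 33.4 and 24.5. Over 700 to 1000 bp they were 21.1 and 39.1 against 24.0 and 24.0. In regions over 1000 bp both classes had more summits at 200 to 300 bp, 13.4 and 39.7 for members against 18.2 and 27.5 without BHLHE40. The part of region width in the overall difference was not tested.

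**Figure D2:**
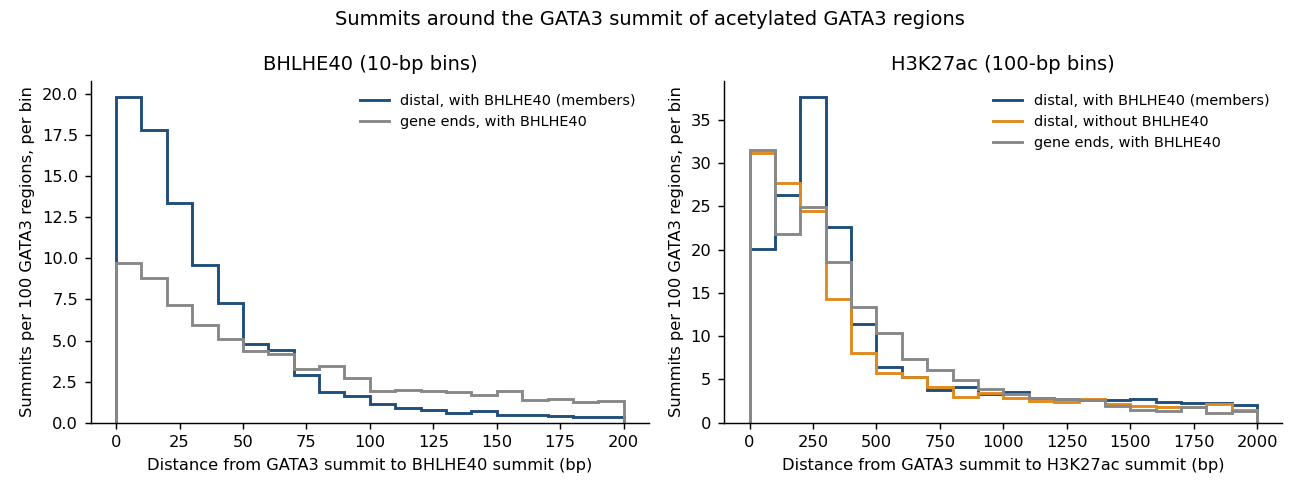
Number of BHLHE40 summits (left, 10-bp bins) and H3K27ac summits (right, 100-bp bins) per 100 GATA3 regions against the distance from the GATA3 summit in bp, for members, acetylated distal regions without BHLHE40 and shared acetylated regions at gene ends. BHLHE40 summits of members pile up at 0 to 10 bp (19.8 per 100 regions), while their H3K27ac summits are most frequent at 200 to 300 bp (37.6), unlike both other classes.

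An H3K27ac summit lay within 2 kb on both sides of the GATA3 summit in 2489 members (35.2%, 34.1% to 36.3%), beside 31.4% of all acetylated GATA3 regions. Keeping only the H3K27ac list's entries at or above 5 in −log10 q lowered this share to 19.2%. Gene-end regions were close to members, at 31.5% (difference 3.73 points, 1.88 to 5.56, higher in members on 18 of 21 chromosomes). The share was 22.8% (21.3% to 24.3%) in acetylated distal regions without BHLHE40, a difference of 12.4 percentage points (10.5 to 14.3), and it was higher in members on 19 of 19 chromosomes. H3K27ac signal and GATA3 region width also differed between these classes, and their part in the difference was not tested beyond the following values. Within 4 bands of H3K27ac signal, which hold about equal numbers of the class without BHLHE40, the difference was 11.9, 14.2, 14.3 and 9.57 points from the lowest to the highest band. The GATA3 summit itself lay inside an H3K27ac region in 66.0% of members, 51.1% of regions without BHLHE40 and 84.1% of gene-end regions. The 2403 members whose summit lay beside and not inside an H3K27ac region had a GATA3 signal of 17.7 at the median against 16.4 for the rest, and an H3K27ac region width of 340 bp against 739 bp.

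Members with more GATA3 signal also had more BHLHE40 signal, whereas H3K27ac signal did not follow GATA3. When members were cut into 10 equal groups by GATA3 signal, the median BHLHE40 signal was 9.21 in the lowest group, 10.9 in the fifth, 17.3 in the ninth and 28.9 in the highest. The median H3K27ac signal was 4.72, 4.04, 4.13 and 4.55 in the same groups. The median distance between factor summits shrank from 48.5 bp in the lowest group to 33, 20 and 15.5 bp. Over the 7075 members, Spearman's rho was 0.410 between GATA3 and BHLHE40 signal, 0.258 between BHLHE40 and H3K27ac signal and -0.0182 between GATA3 and H3K27ac signal. The points share their libraries, and strong regions also tend to be wide, so these are descriptions without a test. GATA3 signal was also higher in wider GATA3 regions, with a rho of 0.447.

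**Figure D3:**
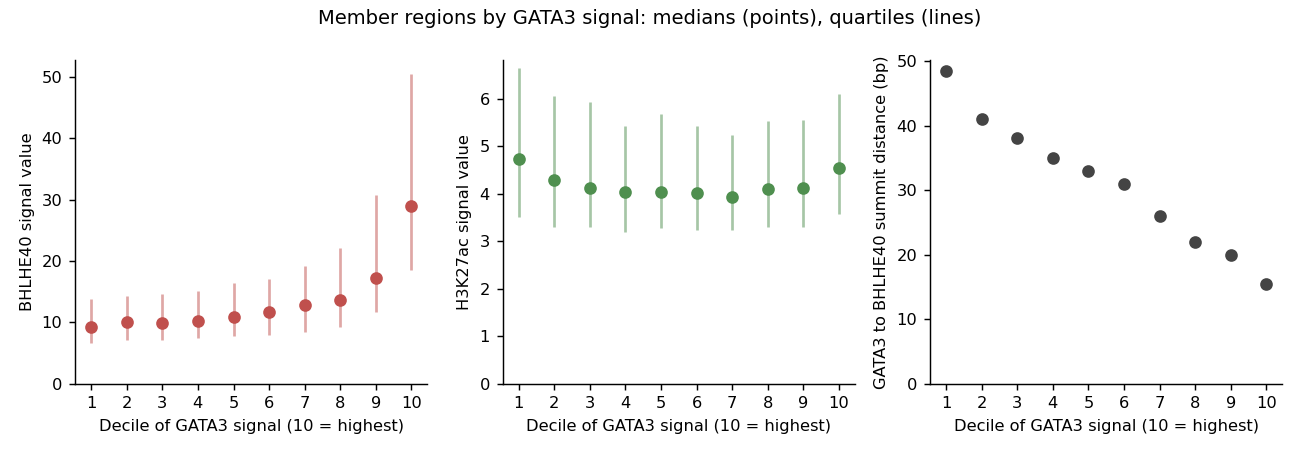
Median BHLHE40 signal, median H3K27ac signal (points, with lines from the lower to the upper quartile) and median summit distance in bp over 10 groups of members ordered by GATA3 signal. BHLHE40 climbs from 9.21 to 28.9 and the summit distance falls from 48.5 to 15.5 bp, while H3K27ac stays between 3.94 and 4.72.

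Most members lay inside genes. The GATA3 summit was inside a gene record in 5040 members (71.2%, 70.2% to 72.3%), beside 67.6% of all GATA3 regions more than 1 kb from gene ends. The share was 72.1% in gene-end regions (difference -0.893 points, -2.65 to 0.883), 67.4% in shared regions without H3K27ac (difference 3.83 points, 1.83 to 5.85), 69.4% in acetylated regions without BHLHE40 (1.87 points, -0.0904 to 3.86) and 64.7% in the distal regions with neither. A protein-coding record held 60.5% of members, a long noncoding RNA record but no protein-coding one held 9.91%, another record 0.820%, and 28.8% lay between records. The nearest end of a gene record was 1 to 5 kb away for 26.4% of members, 5 to 10 kb for 18.5%, 10 to 50 kb for 44.1%, 50 to 100 kb for 8.37% and over 100 kb for 2.61%. These shares and those by record type are given for members only. The median distance was similar across distal classes: 11735 bp in members and 11989 bp in shared regions without H3K27ac. It was 13164 bp in acetylated regions without BHLHE40 and 13360 bp in distal regions with neither. Members between records and inside them had similar medians: GATA3 signal was 17.7 (16.8 to 18.8) against 16.5 (15.9 to 17.2) and H3K27ac signal 4.27 (4.15 to 4.35) against 4.13 (4.07 to 4.20).

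The member with the highest GATA3 signal, 269, was also the strongest of all 29009 GATA3 regions and lay inside MAP3K8, a kinase of the NF-kB and MAP kinase pathways (chr10:30436667-30437846). The BHLHE40 signal there was 133, rank 14 in its list, and the summits were 17 bp apart. The next, at chr16:74608395-74609547, lay 1990 bp from GLG1, a Golgi protein gene, with a GATA3 signal of 264 and a narrow H3K27ac region of 228 bp. A member at chr10:90226522-90228396 with a GATA3 signal of 239 lay 51247 bp from the nearest record of any kind and 452538 bp from the nearest protein-coding one, KIF20B. RUNX2, a factor of bone and T-cell development, held a member with a GATA3 signal of 230 and a BHLHE40 signal of 140 (chr6:45450467-45451980). A member at chr20:29629013-29630132, 12193 bp from the pseudogene CFTRP2, had signals of 218 for GATA3 and 170 for BHLHE40. The nearest protein-coding record was 1183842 bp away. No region was removed here for lying in a repeat-rich stretch. The member 3786 bp from TOX, a factor of T-cell development and exhaustion, spanned 2604 bp with a GATA3 signal of 213 and an H3K27ac signal of 10.3 (chr8:58800756-58803359). The remaining members of the top 10 by GATA3 signal lay inside CDC73 (210), a subunit of a transcription elongation complex, inside the noncoding record LOC105374789 (209), inside MACROD2 (201) and 4900 bp from LOC100507403 (200). Factor summits were 5 to 32 bp apart in these 10 members.

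By BHLHE40 signal, the member inside SMCO1 on chromosome 3 came first with 193, rank 3 of the BHLHE40 list, and a GATA3 signal of 126. The chromosome 20 member near CFTRP2 came next, followed by one 36821 bp from RAD51B, a DNA repair gene, with a BHLHE40 signal of 157 and summits 1 bp apart. A pair of members 18869 and 20366 bp from CD226, an activating receptor of T and NK cells, overlapped the same BHLHE40 region with a signal of 152. Their own GATA3 signals were 134 and 20.9, and only the first had its summit near that of BHLHE40, 20 bp against 1477 bp. PLAAT3 held a member with a BHLHE40 signal of 141, and RUNX2 and MAP3K8 followed. The last 2 were inside LOC124902205 on chromosome 9, with a BHLHE40 signal of 131 but a GATA3 signal of 14.6, and 316404 bp from ZFAT on chromosome 8, with 130 and 120. Thus 1 of the 10 members with the highest BHLHE40 signal had a GATA3 signal below the members' median of 16.9.

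The members with the highest H3K27ac signal were different regions, and their GATA3 signals were low to moderate, 5.61 to 21.2. DYNC2I2, a dynein subunit gene, held the first, with an H3K27ac signal of 27.3, rank 29 of its list, a GATA3 signal of 5.61 and factor summits 247 bp apart. It was followed by members inside ARMC5 (21.3), RSRP1 (20.9) and MGAT1 (20.6), a Golgi enzyme gene of N-glycan synthesis. Others lay 45747 bp from RPS6KA1 (19.7), 46241 bp from PTMA (19.0), inside KDM3A (18.8), a histone demethylase gene, 88016 bp from XYLT1 (18.6), inside SRP9 (18.5) and 10465 bp from SPACA5 (18.4).

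Members crowded together along the chromosomes. Another member lay within 10 kb of 1747 members (24.7%, 23.7% to 25.7%), but this share depends on how many regions a class holds. Counted over all GATA3 regions, which are the same set for every class, another region lay within 10 kb of 53.3% of members (52.1% to 54.4%), 43.4% of acetylated regions without BHLHE40, 45.8% of shared regions without H3K27ac, 41.7% of gene-end regions and 36.7% of distal regions with neither. The difference from acetylated regions without BHLHE40 was 9.85 points (7.71 to 12.0). Within 4 bands of GATA3 signal cut in the same way it was 3.64 points in the lowest band, where the interval (-1.01 to 8.29) held 0, and 10.2, 10.6 and 15.0 points in the other bands.

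Chaining members whose summits were within 10 kb gave 766 clusters of 2 or more, of which 155 held at least 3 members and 525 members in all. Members in clusters of 3 or more had a lower median H3K27ac signal than members alone, 3.60 against 4.31, but more sequence under H3K27ac within 5 kb, 1558 against 942 bp. The 2 largest clusters held 7 members each. One lay inside CDK6, a kinase that drives the G1 phase of the cell cycle, over 21.8 kb (chr7:92620957-92642747), with GATA3 signals of 7.29, 19.5, 34.3, 16.1, 19.4, 1.76 and 7.81 along the chromosome. Its BHLHE40 signals ran from 7.82 to 21.0 and no member of the cluster stood far above the others. Outside the cluster CDK6 held a stronger member, with a GATA3 signal of 127 and a BHLHE40 signal of 90.5 (chr7:92754371-92755644). The other cluster of 7 lay inside FLI1, an ETS factor of blood cells, over 22.7 kb (chr11:128716672-128739394). GATA3 signals there were 28.9, 20.6, 14.4, 42.2, 50.3, 12.1 and 138, and the last member also had the highest BHLHE40 signal, 81.2, with summits 3 bp apart.

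Clusters of 6 members lay on 4 further stretches. One covered the noncoding records LOC107985243 and LINC02789 on chromosome 1, 404169 bp from PTPRC, the nearest protein-coding gene, which encodes the phosphatase CD45. Another lay inside NEK7, a kinase of inflammasome assembly, with 5 members between 6.76 and 9.38 and 1 at 81.9 in GATA3 signal. A cluster in a stretch without gene record, 17949 bp from CD40LG, the CD40 ligand of activated T cells, held members between 11.3 and 16.1 and 1 at 88.6 (chrX:136604334-136630209). FASLG, the Fas ligand that triggers cell death, was overlapped by the widest of these clusters, 41.3 kb, with an H3K27ac signal of up to 9.32 (chr1:172638525-172679867). There were 7 clusters of 5 members, tied in size, and only some of them are among the 10 clusters named here. Those named lay inside CABCOCO1, ZC3HAV1, PAG1 and RUNX1. ZC3HAV1 is an antiviral zinc finger gene, PAG1 encodes an adaptor that restrains T-cell receptor signalling and RUNX1 is the RUNX factor of the TAL1 complex. In 5 of the 10 named clusters, those of CDK6, LINC02789, NEK7, CABCOCO1 and ZC3HAV1, some members shared a BHLHE40 region (15 of 58 members of the 10 clusters). Members of a cluster are therefore not separate observations of those lists.

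**Figure D4:**
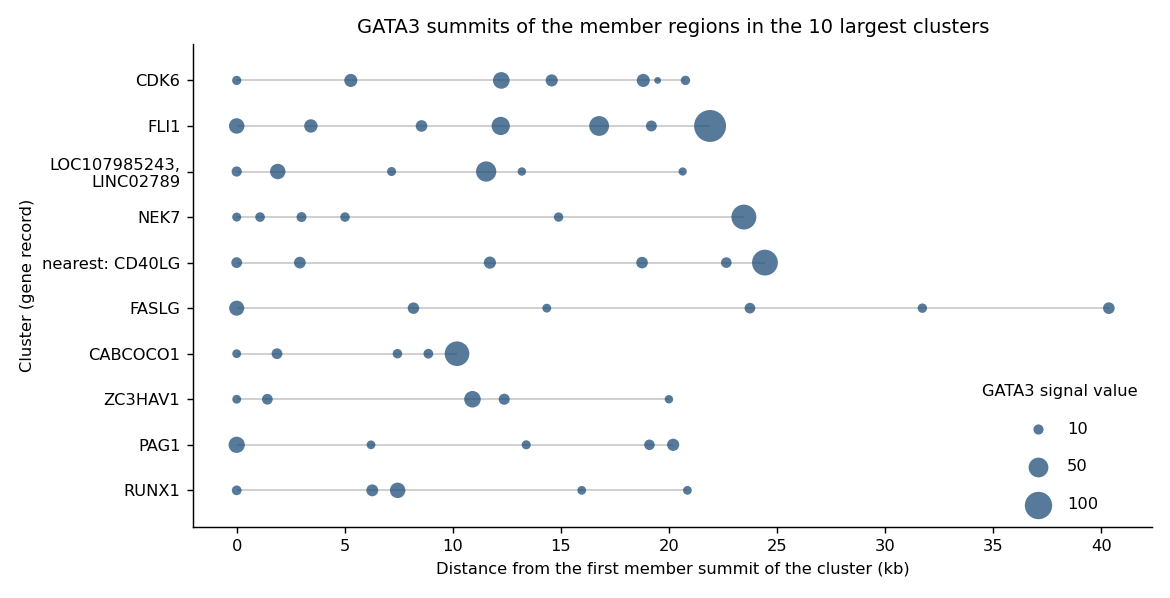
GATA3 summits of the members in the 10 largest clusters, in kb from the first summit of each cluster, with point area growing with GATA3 signal value. Other clusters of 5 members, tied in size with the smallest shown, are left out. FLI1 (138), NEK7 (81.9), CABCOCO1 (79.9), PAG1 (32.4), FASLG (27.1) and the cluster near CD40LG (88.6) each have their strongest member at 1 edge. The clusters of CDK6, LINC02789, ZC3HAV1 and RUNX1 have it between other members. The CDK6 cluster has 7 members of which none exceeds 34.3.

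Genes were then read by function, each gene counting the members inside it or within 50 kb. Beside the 31.7% of all protein-coding genes with at least 1 member, 1.33% had 5 or more. Long genes collect more members: 23.9% of genes of up to 20 kb had 1, against 47.2% of genes over 200 kb. Neighbouring genes can count the same member. Over all protein-coding genes CDK6 had the most members, 20, followed by BACH2, a repressor of lymphocyte differentiation, CHST11 and RUNX1 with 16 each and ARHGEF6 with 14.

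**Figure D5:**
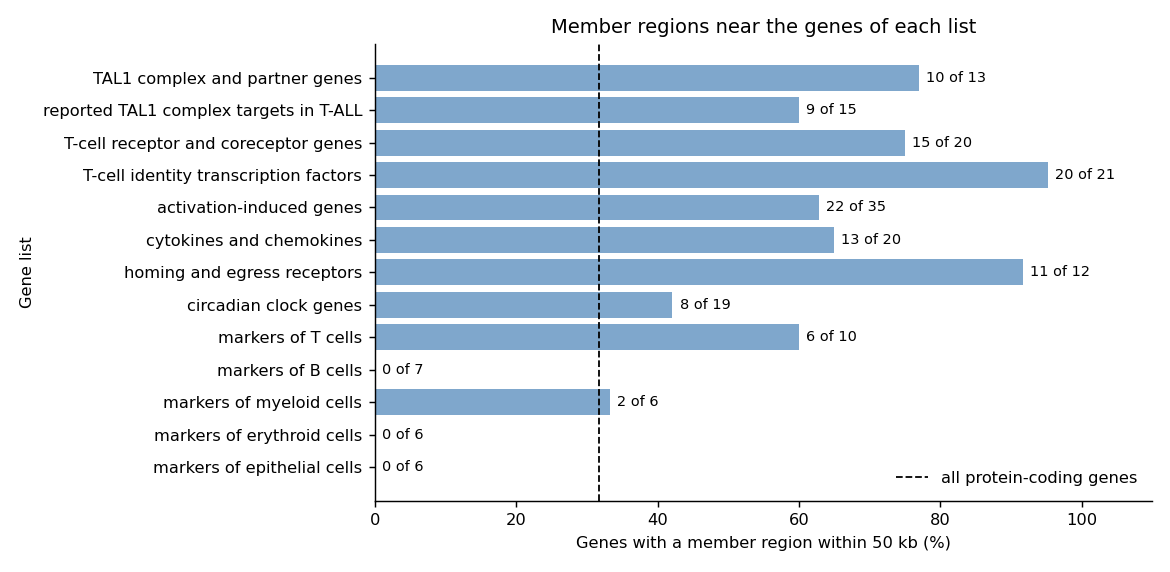
Percent of the genes of each list with at least 1 member region inside the gene record or within 50 kb, with the counts beside the bars and a dashed line at the 31.7% of all protein-coding genes. Factors of T-cell identity (20 of 21) and homing and egress receptors (11 of 12) have the highest shares, and B-cell, erythroid and epithelial markers have none.

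Among transcription factors of T-cell identity, 20 of 21 had a member and 8 had 5 or more. Their records are long, 121 kb at the median against 24.1 kb for all protein-coding genes, and 45.5% of all genes of 100 to 200 kb had a member. The exception was BCL11A, a factor of B cells and of progenitors. STAT5A and STAT5B count the same 3 members. FLI1 had 12 members, with GATA3 signals of 9.36 to 153. TOX had 11, from 7.05 to 213. LEF1, a partner of beta-catenin in thymocytes, had 9 members, of which 8 lay inside its record. The strongest LEF1 member, at chr4:108107613-108108964, had a GATA3 signal of 153 and an H3K27ac signal of 10.9, and the others did not exceed 20.6 in GATA3 signal. IKZF1, which encodes Ikaros, had 8 members, led by a GATA3 signal of 138 with factor summits 4 bp apart. IKZF2, which encodes Helios, had 7, up to 67.8. TCF7 had 5 members, and its strongest (174) lay 21293 bp away inside VDAC1. BCL11B, needed for commitment to the T lineage, had 1 member, with a GATA3 signal of 17.0.

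The genes of the TAL1 complex and its partners had members in 10 of 13 cases, and the genes with none were LMO1, TCF3 and EP300. RUNX1 led with 16 members, 14 of them inside the record, with GATA3 signals from 2.68 to 66.3. TCF12, an E protein, and ETS1 had 6 each. The strongest ETS1 member, inside the record, had a GATA3 signal of 127, whereas the highest BHLHE40 signal near ETS1, 65.3, belonged to a member 35960 bp away with a GATA3 signal of 23.4. MYB had 5 members, up to 38.4 at 24940 bp from the record. LYL1 had 2, both inside other genes: NACC1 (GATA3 signal 61.1, 29856 bp from LYL1) and IER2 (6.38, 49270 bp). TAL1 itself had 2, at GATA3 signals of 26.2 and 54.4, both outside its record, and the GATA3 gene had 1 inside its own record (chr10:8048126-8049313), with a GATA3 signal of 75.8, a BHLHE40 signal of 33.2 and summits 7 bp apart. Of 15 genes reported as targets of the TAL1 complex in T-cell leukaemia, whose records are also long (112 kb at the median), 9 had a member: CDK6 had 20, ARID5B 9, ETV6 6, STAT4 4 and PTK2 3. Those with none included DUSP26, PTCRA, RAG1, RAG2 and TRAF3.

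T-cell receptor and coreceptor genes had members in 15 of 20 cases, and the 5 with none were the receptor chains CD3D, CD3E and CD3G, the coreceptor CD4 and the kinase ZAP70. CD8A and CD8B count the same 2 members, and CD5 and CD6 share 1. CD28, the costimulatory receptor, had 6 members with GATA3 signals of 138, 86.0, 32.5, 22.8, 14.1 and 8.20. The strongest lay 2307 bp outside the record with an H3K27ac signal of 8.43, and the second, inside the record, had the highest BHLHE40 signal of the 6, 40.7. PTPRC also had 6, up to a GATA3 signal of 114. FYN, a kinase below the receptor, had 4, and LCP2, an adaptor, had 4 with a BHLHE40 signal of up to 106.

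Genes induced by activation had members in 22 of 35 cases, and 2 had 5 or more. NFKB1 and ZFP36L1, an mRNA decay factor, had 5 each. CD69, the early activation marker, and DUSP5, a MAP kinase phosphatase, had 4, and DUSP2 had 3. The strongest of the CD69 members lay 4068 bp from the record (chr12:9764438-9765919) with signals of 96.1 for GATA3, 99.2 for BHLHE40 and 6.29 for H3K27ac and summits 2 bp apart. The other CD69 members had GATA3 signals of 22.8, 14.2 and 9.57. Near DUSP2 a BHLHE40 signal of 103 was listed, while GATA3 did not exceed 40.3. The 13 genes with none were BTG1, DUSP4, DUSP6, EGR1, FOSB, IRF4, NFKB2, NFKBIA, NFKBIZ, NR4A2, PIM1, TNFRSF9 and ZFP36. Cytokines and chemokines had members in 13 of 20 cases although their records are short, 4.93 kb at the median. The 13 genes are not separate cases: TNF, LTA and LTB count the same single member, and IL3 and CSF2 share members. FASLG had 9 members, and IL2 and CSF2, a growth factor of myeloid cells, had 4 each. The strongest member near IL2 lay 46714 bp from the record with a GATA3 signal of 141 and a BHLHE40 signal of 85.3. IFNG and IL10 had 3 each. The cytokine genes with none were CCL3, CCL4, CXCL8, IL4, IL13, TGFB1 and XCL1.

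Homing and egress receptors had members in 11 of 12 cases, with none near ITGB7, an integrin chain. CD44, an adhesion receptor, had 9 members with GATA3 signals of 9.64 to 70.6. CCR9, a chemokine receptor of thymocytes and gut T cells, had 7, all outside its record and up to 150. ITGAL, an integrin chain, had 4, up to 127, and S1PR1, the receptor for exit from lymphoid organs, had 3, up to 25.6. Circadian clock genes, among which BHLHE40 belongs, had members in 8 of 19 cases, 42.1%, nearer to the 31.7% of all protein-coding genes than the lists of T-cell genes above. RORA, a nuclear receptor whose record spans 741 kb, had 5, PER1 had 3, and CRY1 and NPAS2 had 2. The PER1 members had GATA3 signals of 12.0, 6.38 and 5.06, whereas 2 of them had BHLHE40 signals of 43.1 and 49.7. The BHLHE40 gene had 1 member, 34330 bp away, with a GATA3 signal of 18.9 and a BHLHE40 signal of 6.99. Those with none included BHLHE41, BMAL1, CIART, CLOCK, CRY2, HLF, NFIL3, NR1D1, NR1D2 and TEF.

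The widest member held a microRNA gene. At chr17:58327585-58334355 a GATA3 region of 6771 bp, the widest among members, contained MIR142, a microRNA gene of blood cells, on the minus strand. Its GATA3 signal was 57.7 and its BHLHE40 signal 55.6, while the overlapped H3K27ac signal was 2.96. The GATA3 summit lay 2648 bp from the middle of the hairpin at chr17:58331232-58331318. Both arms are printed because they are the only mature microRNAs of the RefSeq table found inside members, with the seed, bases 2 to 8, in capitals.
hsa-miR-142-3p: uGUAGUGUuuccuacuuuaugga
hsa-miR-142-5p: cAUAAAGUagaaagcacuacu
The arms have different seeds. The lists measure binding and acetylation at the gene, and no level of either microRNA was measured.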

How the data were processed

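The 3 deposited peak lists, for GATA3, BHLHE40 and H3K27ac, come from ChIP-seq of stimulated Jurkat cells with the control lentivirus, 2 samples a list, grouped by their titles. The submitters' processing notes name bcl2fastq 2.20, MACS2 and the build hg38. The aligner and any use of input samples in peak calling are not given in the sources used here. Per the names of the deposited lists, the authors filtered the factor lists at an irreproducible discovery rate of 0.05 and pooled the samples for H3K27ac. Signal and score are the authors' deposited values per region, and so is the −log10 q-value. They were used only within a list.

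Regions were overlapped, counted and summarised with Python 3.11.15, numpy 2.4.6, pandas 2.3.3 and scipy 1.17.1, with functions checked on simulated lists. Where a region met several others, the BHLHE40 region with the nearest summit and the H3K27ac region with the highest signal were used. Gene records (59792, of which 20056 protein-coding), promoter windows and microRNAs came from RefSeq GRCh38.p14. Of the GATA3 regions, 14 on scaffolds without a gene record were left out of the classes. Coordinates are 1-based.

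The rule for named genes took the 10 members with the highest signal in each list, the 10 largest clusters and, in each gene list, up to 5 genes with the most members and all with none. Some genes that the rule names are not reported here. Other names were chosen after their values were seen. The members, lists and comparisons were chosen with earlier results of these data known. A planned search for motifs at all summits was not run, since no genome sequence was used here, and promoter windows took its place. Alternatives covered stricter scores and q-values, other definitions of overlap and distance, protein-coding records, autosomes and leaving out the strongest regions.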

Additional observations from a re-analysis of the deposited data

How the results depend on the processing

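The 2 differences between classes kept their sign in all 11 settings, which were chosen after seeing the data, and their interval stayed above 0 in 10. The other 6 results, a count, a median and shares, have no direction and were recomputed in 58 settings, 6 of them added after seeing the data. The number of members ran from 4624 to 7810 and moved by over 1.5 times in 1 setting, a GATA3 summit inside both a BHLHE40 and an H3K27ac region (4624). The same setting gave 16.0% of members within 10 kb of another, 31.4% with H3K27ac summits on both sides and 24.4% of protein-coding genes with a member. A score of at least 830 in both factor lists gave a summit distance of 27 bp, 22.0% within 10 kb and 26.6% of genes. An H3K27ac −log10 q of at least 5 gave 32 bp, 21.9% within 10 kb, 19.2% with H3K27ac on both sides and 25.2% of genes. With that q-value the difference in both-sided H3K27ac from regions without BHLHE40 was 9.76 points (7.46 to 11.8). Coverage of 50% of the GATA3 region by BHLHE40 gave 23.7% within 10 kb and 30.8% of genes, a distance of more than 5 kb gave 23.0% and 21.6%, protein-coding records alone gave 26.5% and 34.3%, and leaving out the strongest 1% of each list gave 23.4% and 30.5%. Autosomes alone gave 31.1% of genes. Leaving out members within 1 kb of a listed transcript start gave 70.0% inside gene records and 29.8% of genes. Neighbour distances of 5 and 20 kb gave 14.4% and 38.0%, a window of 1 kb gave 29.5% with H3K27ac on both sides, and a window of 10 kb gave 17.1% of genes. In the lowest of 4 bands of GATA3 signal the crowding difference lost its clearance from 0 (3.64 points, -1.01 to 8.29). Apart from settings that change the distance or the list itself, the cause was not tested. No paired analysis was possible because the lists give no value per sample, and for the same reason leaving out a replicate was not run. The motif alternative at all summits was not run either, for want of a genome sequence here. The depth is unknown, so weak regions missing from a list cannot be told from regions without binding.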

Other observations

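Members made up different shares of the distal GATA3 regions of each chromosome, and the spread was not tested. They made up 29.9% of all distal GATA3 regions, with the highest shares on chromosomes 22 (38.4%, 137 of 357), 17 (36.0%, 292 of 810) and 19 (35.4%, 123 of 347) and the lowest among chromosomes with over 100 members on 4 (26.5%, 347 of 1311) and X (26.5%, 184 of 695). The median GATA3 signal of members did not follow this order, with 17.5 on chromosome 22, 14.9 on chromosome 19, 15.5 on chromosome 4 and 19.4 on chromosome X. On chromosome Y 4 of 39 distal GATA3 regions were members.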
